A study of Mus musculus with 31 samples.

Results

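Lungs of C57 BL/6 mice that had inhaled cigarette smoke were compared after an instillation into the trachea of bacterial lipopolysaccharide (LPS) dissolved in saline and after saline alone. The comparison rests on 6 of the 31 arrays of the series, 3 per group, taken by their titles. All 6 came from male C57 BL/6 mice labelled as 6 weeks old. The titles give 3 weeks of smoke, whereas the series text gives 6 weeks of exposure for the mice that were instilled, so the length of exposure is not settled. The LPS dose and the time between instillation and dissection were not given in the sources used here. Each array read total RNA of lung tissue, and the titles call the 3 arrays of a group biological replicates. Groups used for comparison were C57 BL/6 lungs after room air with saline (3 arrays) or LPS (3 arrays), and lungs of the AKR strain after smoke with saline (3 arrays) or LPS (2 arrays), also male and also labelled as 6 weeks old. The other arrays of the series entered the fit that gave the standard errors. They were AKR lungs after room air with saline (3 arrays) or LPS (3 arrays), and lungs after room air without instillation. The latter were C57 titled 6 weeks (3 arrays) and AKR titled 3 weeks (2 arrays) or 6 weeks (3 arrays), all labelled as 6 weeks old.

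LPS is a component of the outer membrane of Gram-negative bacteria. It is carried by the LPS-binding protein to CD14 and then to the receptor TLR4 with its partner MD-2, which signal through MyD88 to the transcription factor NF-κB and through TRIF to the interferon regulatory factors. In lung, instilled LPS is a common model of acute lung injury: resident macrophages and epithelium make chemokines and cytokines, and neutrophils and then monocytes enter from the blood.

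The values are log2 intensities on which the authors had run the robust multi-array average (RMA), so a difference of 1 is a doubling. A difference is LPS minus saline, given with the standard error of a limma fit after the ± sign. A gene is said to have risen or fallen where its Benjamini-Hochberg adjusted p over the 14705 genes tested was under 0.05.

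The lung markers were present on each of the 6 arrays. Surfactant protein C (Sftpc, made by alveolar type II cells) lay between 12.99 and 13.56, the club cell secretoglobin Scgb1a1 between 13.10 and 13.60, and Ager, the alveolar type I marker, between 11.94 and 12.43. Replicate 3 of each group read against its label in genes of the LPS response. To place the 6 arrays without using them, 115 genes that changed by at least 2 log2 units with LPS after room air were read on each array, on a scale where 0 is the mean of the air saline arrays and 1 the mean of the air LPS arrays. Smoke saline replicates 1 and 2 had median positions of 0.017 and 0.005, and smoke saline replicate 3 had 0.84. Smoke LPS replicates 1 and 2 had median positions of 1.18 and 1, and smoke LPS replicate 3 had -0.017. On the array labelled smoke saline 3, 97 of the 115 genes were nearer to the air LPS mean, and on the array labelled smoke LPS 3 it was 1 of 115. Across the genes tested, smoke saline 3 correlated more closely with smoke LPS 2 (Pearson r 0.991) than with smoke saline 1 and 2 (0.962 and 0.955). Smoke LPS 3 had r of 0.984 with each of smoke saline 1 and 2, against 0.899 and 0.93 with smoke LPS 1 and 2.

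**Figure D1:**
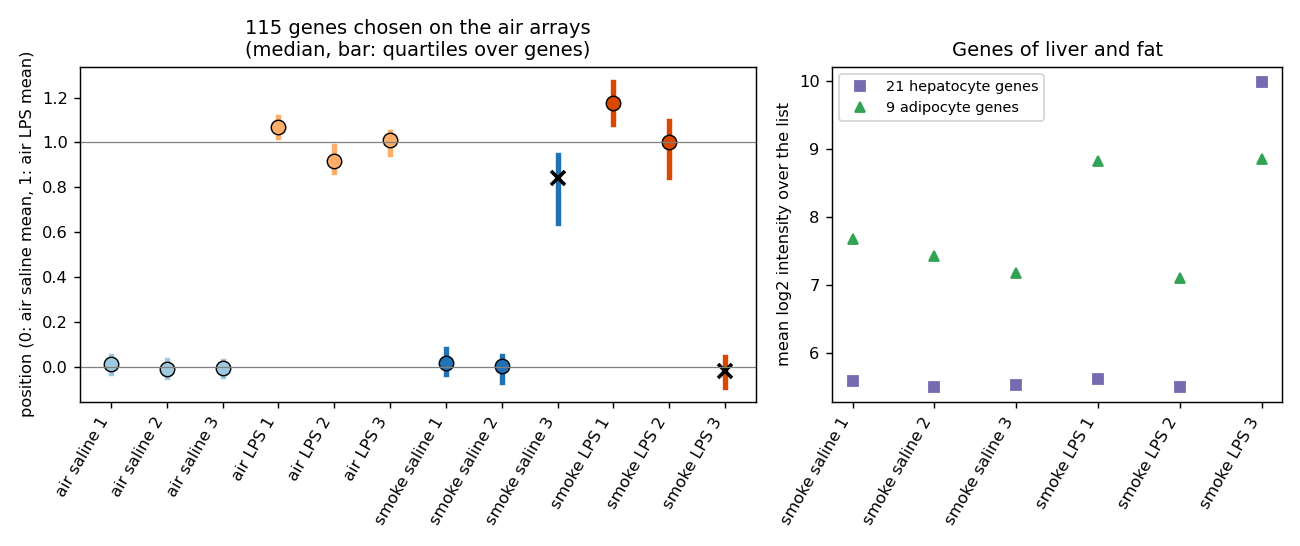
Left, median position of each instilled C57 array over 115 genes chosen by their LPS difference on the room air arrays, from 0 (air saline mean) to 1 (air LPS mean). Bars show the quartiles over genes, and crosses mark both smoke replicates 3. Smoke saline 3 is at 0.84 and smoke LPS 3 at -0.017. Right, mean log2 intensity of 21 hepatocyte genes (squares) and 9 adipocyte genes (triangles) on the 6 smoke arrays; the hepatocyte mean is 9.99 on smoke LPS 3 and between 5.50 and 5.61 on the other 5.

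The array labelled smoke LPS 3 also carried liver transcripts. Over 21 genes typical of hepatocytes, a list written after these values had been seen, its mean was 9.99, and the other 30 arrays of the series lay between 5.18 and 5.67. All 21 genes were highest there, among them albumin (Alb) at 13.27 against at most 6.92 elsewhere, transthyretin (Ttr) at 10.47 against at most 5.51 and apolipoprotein A1 (Apoa1) at 11.74 against at most 7.37. Against the other 14 C57 arrays, 77 genes on it were higher by at least 2 log2 units, a count of 2 on smoke LPS 1 and of 0 on each of the others. Of 9 fat genes, 6 were higher on both smoke LPS 1 and smoke LPS 3 than on each of the other 4 smoke arrays, by over 0.5 log2 units. Lep, Lpl and Ucp1 were not. Adiponectin (Adipoq) read 8.70 and 9.26 there, 5.51 on smoke LPS 2 and from 5.70 to 7.19 on the smoke saline arrays. The brown fat gene Ucp1 stood at 7.91 on smoke LPS 1, the highest of the series, and at most 5.84 on the other C57 smoke arrays.

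Taken as labelled, 3 arrays against 3, no gene passed (limma, percent called 0), and 1300 genes (8.84% of those tested) had an unadjusted p under 0.05. The smallest adjusted p was 0.071, for the serum amyloid Saa4 (1.56 ± 0.26). The log2 intensities of Saa3, an acute-phase protein that LPS induces, were 6.10, 6.36 and 12.47 with saline and 12.64, 12.85 and 6.06 with LPS. The groups overlapped, each holding 2 arrays on one side and replicate 3 on the other, and the difference was 2.21 (limma adjusted p = 0.61). Cxcl2, a chemokine that draws neutrophils, read 5.16, 6.36 and 11.11 with saline and 12.33, 11.65 and 5.21 with LPS, a difference of 2.19 (limma adjusted p = 0.58). The largest difference as labelled was that of the acute-phase glycoprotein Orm1, at 2.81 (limma adjusted p = 0.56). Orm1 is also a liver product, and on smoke LPS 3, which held liver transcripts, it read 9.16 against 6.52 and 6.43 on smoke saline 1 and 2. The part of the liver transcripts on smoke LPS 3 in the differences of Orm1 and Saa4 was not tested. Of the 35 gene lists described next, none had a member that passed as labelled.

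All results from here on leave out both replicates 3, so that 2 LPS arrays face 2 saline arrays, with the spread estimated over 29 arrays. Because both arrays were left out for their values in LPS-response genes, the p-values of such genes are too small. The count after room air is given beside many of the lists, and the others are given without it. Its levels and differences come from other arrays, while its p-values share the spread estimated without the pair. Without the pair, 3048 genes passed (20.7% of those tested), 1608 higher (10.9%) and 1440 lower (9.79%) with LPS. With a further array left out the split was 1212 higher and 708 lower without smoke saline 1, 940 and 838 without smoke saline 2, 1028 and 544 without smoke LPS 1, and 1318 and 1354 without smoke LPS 2. Of the 3048, 532 rose and 185 fell by at least 1 log2 unit. The median difference over all genes was -0.03. In whole lung tissue a change in the number of cells of a type and a change in RNA per cell cannot be told apart.

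The 10 genes that rose most were Saa3, Cxcl2, Acod1, Cxcl10, Cxcl9, Orm1, Clec4e, Ccl3, Ccl20 and Il1a. Saa3 went from 6.10 and 6.36 with saline to 12.64 and 12.85 with LPS, a rise of 6.51 ± 0.50 (limma adjusted p = 3.6e-09). After room air it read 5.98, 6.05 and 6.09 with saline and 12.84, 12.38 and 12.66 with LPS. Acod1, the mitochondrial enzyme that makes itaconate, rose from 6.60 and 6.26 to 13.24 and 11.94 (limma adjusted p = 9.6e-10). Neither gene's LPS arrays came near its saline arrays. With saline, Saa3 lay at percentiles 34.8 and 37.9 of all probe sets on the smoke arrays, so its rise may be understated. The smallest adjusted p in the comparison was that of the neutrophil chemokine Cxcl3 at 8.5e-12 (limma), whose values were 5.30 and 5.58 with saline and 9.10 and 9.36 with LPS.

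**Figure D2:**
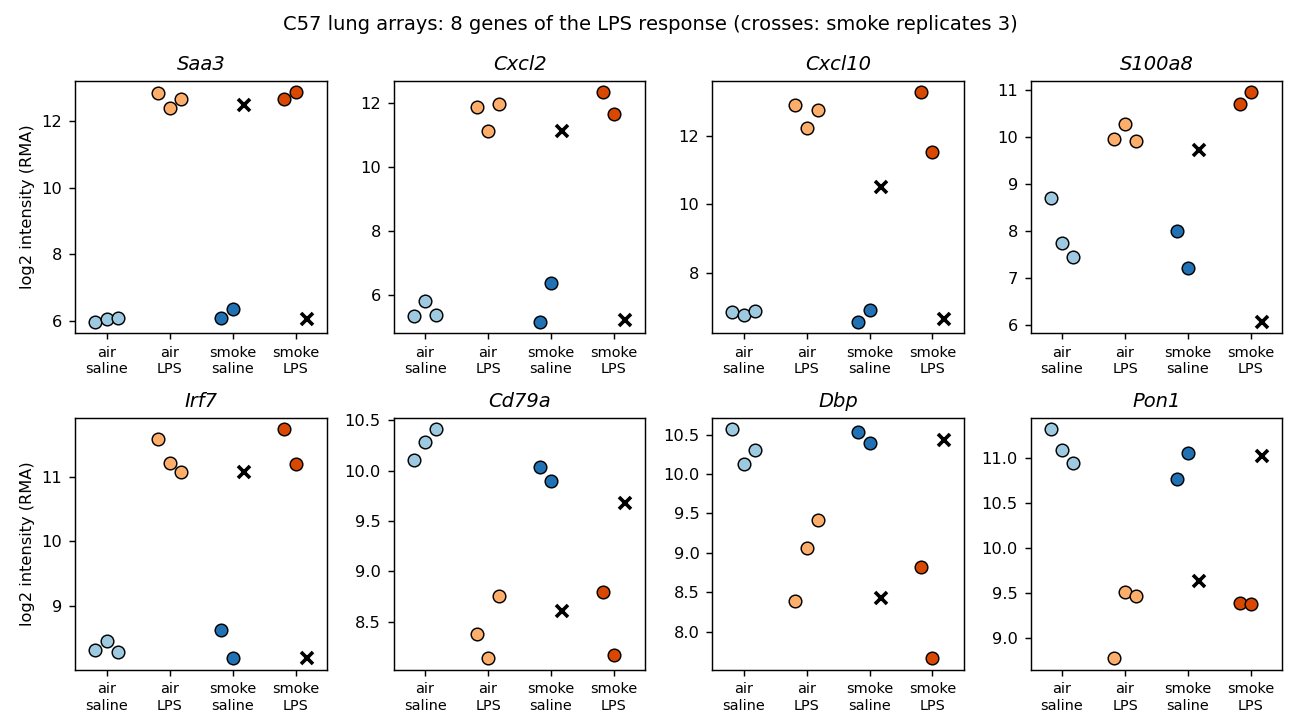
Log2 intensity (RMA) of 8 genes on each instilled C57 array, 1 panel per gene, with groups on the horizontal axis and crosses for both smoke replicates 3. Saa3, Cxcl2, Cxcl10, S100a8 and Irf7 are high, and Cd79a, Dbp and Pon1 low, on smoke LPS 1 and 2 and on the array labelled smoke saline 3, while smoke LPS 3 lies near or, for S100a8, below the saline arrays.

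Promoters of a pair of NF-κB target chemokines and a pair of interferon-responsive genes are shown because these are the 2 arms that LPS drives through TLR4. Each is the 250 bases before the start of the gene in RefSeq's GRCm38.p6 annotation, read 5′ to 3′ on the strand of the gene. Capitals mark matches on either strand to a κB motif (GGG and TTTCC with any 2 bases between them) or to an interferon-stimulated response element, ISRE (GAAA and GAAA with any 2 bases between them), and no matches overlapped.
Cxcl2, chr5:90903649-90903898, plus strand, 2 κB matches: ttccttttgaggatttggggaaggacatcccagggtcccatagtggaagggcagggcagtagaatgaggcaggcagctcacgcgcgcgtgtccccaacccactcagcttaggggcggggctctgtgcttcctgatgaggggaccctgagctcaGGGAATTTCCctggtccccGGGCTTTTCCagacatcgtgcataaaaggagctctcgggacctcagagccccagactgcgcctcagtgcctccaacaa
Cxcl1, chr5:90890995-90891244, plus strand, 2 κB matches: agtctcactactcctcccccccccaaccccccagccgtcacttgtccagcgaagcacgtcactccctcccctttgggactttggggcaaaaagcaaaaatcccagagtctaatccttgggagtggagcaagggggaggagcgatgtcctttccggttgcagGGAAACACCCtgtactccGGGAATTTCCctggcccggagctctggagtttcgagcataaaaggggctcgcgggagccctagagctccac
Cxcl10, chr5:92348890-92349139, minus strand, 1 ISRE match: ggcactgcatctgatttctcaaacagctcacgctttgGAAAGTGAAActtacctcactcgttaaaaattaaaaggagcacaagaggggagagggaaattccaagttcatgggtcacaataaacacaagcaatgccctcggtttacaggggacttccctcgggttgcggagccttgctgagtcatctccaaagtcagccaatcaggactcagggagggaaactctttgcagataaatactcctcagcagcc
Ifit1, chr19:34640639-34640888, plus strand, 2 ISRE matches: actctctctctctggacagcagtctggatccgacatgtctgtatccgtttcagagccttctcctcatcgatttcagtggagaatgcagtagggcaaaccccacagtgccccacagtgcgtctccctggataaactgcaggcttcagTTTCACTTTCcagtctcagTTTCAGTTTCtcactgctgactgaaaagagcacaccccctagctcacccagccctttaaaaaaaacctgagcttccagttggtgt

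The κB motif stood in 464 of the 32851 promoters of that table (1.41%), both strands counted, and in 1.84% of the 11659 tested genes that have one. Among genes that rose by at least 1 log2 unit it stood in 26 of 415 (6.27%), and among those that rose by at least 2 in 13 of 133 (9.77%). The ISRE motif stood in 2.98% of all promoters and in 3.23% of tested genes, against 57 of 415 (13.7%) and 18 of 133 (13.5%) of the genes that rose by at least 1 and 2 log2 units. By list, 3 of 7 neutrophil chemokine genes and 4 of 15 NF-κB genes held the κB motif, and 7 of 17 interferon-stimulated genes held the ISRE motif (41.2%). A match describes these letters and is not a binding site, and a promoter without one in this window says nothing about the factor.

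Genes that sense LPS and other microbial or damage signals rose in 13 of 18 tested members, none fell, and the median difference was 1.22. Over all genes tested 10.9% rose. After room air 15 of the 18 rose, with a median of 0.91, Cd14 by 3.01 and Clec4e by 4.30. Tlr4 itself rose by a small amount, from 8.05 and 8.28 to 8.90 and 8.88 (0.73 ± 0.13, limma adjusted p = 3.6e-04). Its co-receptor Cd14 rose from 8.01 and 8.0 to 11.37 and 11.20, a difference of 3.29 ± 0.27. Clec4e, a C-type lectin receptor of damaged cells and mycobacterial lipid, went from 6.46 and 6.54 to 12.05 and 11.35, a rise of 5.20. Nlrp3, the inflammasome sensor, rose by 3.48 and Tlr2, the receptor for bacterial lipoproteins, by 2.46. The adaptors Ticam1 and Ticam2 did not pass (0.14 and 0.45), nor did the kinase Irak1 (0.08) or Lbp, the LPS-binding protein (0.53).

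NF-κB subunits and the inhibitors that feed back on the pathway rose in 17 of 17, with a median of 1.69. The largest rises were those of the inhibitors Tnip3 (3.40 ± 0.26) and Tnfaip3, also called A20 (2.76 ± 0.24), and of Tnfaip2 (2.80 ± 0.24), a gene induced by TNF. The inhibitors of κB, Nfkbia and Nfkbie, rose by 1.69 and 2.19, and the cytokine signalling suppressor Socs3 by 2.14. Among the subunits, Rela rose least (0.31), below Rel (0.87), Relb (1.29) and Nfkb2 (1.31). After room air, 16 of the 17 rose, with a median of 1.49. Without smoke LPS 1, Rel and Rela did not pass, and Rela did not pass without smoke saline 2 or after quantile normalization either.

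Of the neutrophil-attracting CXC chemokines and their receptors, 5 of 8 rose. Cxcl2 went from 5.16 and 6.36 to 12.33 and 11.65, a rise of 6.23 ± 0.39 (limma adjusted p = 2.3e-10). Its saline values were at percentiles 20.4 and 37.9 of all probe sets, so this rise too may be understated. Cxcl3 rose by 3.79, Cxcl5 by 3.15 and Cxcl1 by 2.24, the last from 6.66 and 6.69 to 9.23 and 8.60. Thus the 4 ligands made by macrophages and epithelium rose. The platelet chemokines Ppbp (-0.37) and Pf4 (0.34) and the receptor Cxcr1 (0.33) did not pass. After room air 5 of the 8 rose and 1 fell, with rises of 6.15 for Cxcl2, 3.60 for Cxcl3 and 1.54 for Cxcl1.

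The 3 interferon-induced ligands of the T cell receptor Cxcr3 rose, and Cxcr3 did not pass (0.38). Cxcl10 read 6.57 and 6.92 with saline and 13.28 and 11.54 with LPS, a rise of 5.66 ± 0.42 or 50.6-fold (limma adjusted p = 2.2e-09). Cxcl9 read 6.47 and 6.81 with saline and 13 and 11.40 with LPS. Cxcl11 differed more between both LPS arrays, at 9.68 and 6.66, with 5.43 and 5.27 on the saline arrays. For all 3 ligands smoke LPS 1 was above the 3 air LPS arrays and smoke LPS 2 below them. Without smoke LPS 1, Cxcl11 no longer passed. All 3 ligands rose after room air, Cxcl10 by 5.81.

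CC chemokines rose in 10 of 12, with a median of 2.25. The macrophage chemokine Ccl3 went from 8.16 and 7.81 to 13.07 and 12.70, a rise of 4.90 ± 0.37. Ccl20, made by epithelium and a ligand of Ccr6, rose from 6.08 and 6.41 to 10.70 and 11.47 (4.84 ± 0.32). The monocyte chemokines Ccl2 and Ccl7 rose by 4.23 and 4.02, and Ccl17 and Ccl22, ligands of Ccr4, by 2.13 and 1.95. The eosinophil chemokine Ccl11 (0.33) and Ccl8 (0.38) did not pass. After room air 11 of the 12 rose, with a median of 2.37, Ccl3 by 4.28 and Ccl20 by 4.68.

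Cytokines of the TNF, IL-6 and IL-1 families, with others of the same response, rose in 13 of 17, and none fell. Tnf read 6.62 and 6.70 with saline and 11.25 and 9.77 with LPS, a rise of 3.85 ± 0.39. Il1b rose from 8.34 and 7.92 to 12.50 and 11.73 (3.98 ± 0.33), Il1a from 7.40 and 6.63 to 12.26 and 11.39 (4.81 ± 0.43), and their natural antagonist Il1rn by 4.16 ± 0.25. In all 4 both LPS arrays lay above both saline arrays. Il6 read 3.97 and 4.13 with saline, percentiles 8.4 and 9 of all probe sets on those arrays, and 8.67 and 6.54 with LPS. At so low a starting level the rise of 3.56 ± 0.48 may understate the change. The growth factor Csf2, which sustains alveolar macrophages, rose by 2.35, and Il23a by 1.75. Il18, which is stored as a precursor in resting tissue, was at -0.08, and the epithelial alarmin Il33 at 0.58; neither passed. Interferon gamma (Ifng), made by natural killer and T cells, read 6.15 and 6.31 with saline and 11.64 and 7.18 with LPS. It passed at 3.18 ± 0.98 (limma adjusted p = 0.024), and both LPS arrays were far apart. It did not pass without smoke LPS 1 or without either smoke saline array. After room air 13 of the 17 cytokines rose, Tnf by 3.44, Il1b by 3.09, Il6 by 3.25 and Ifng by 3.08.

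Acute-phase proteins rose in 12 of 13, with a median of 2.13 (13 and 2.36 after room air). Besides Saa3, Orm1 rose from 6.52 and 6.43 to 11.92 and 11.88 (5.43 ± 0.58) and Orm2 from 4.98 and 4.79 to 9.18 and 8.74 (4.08 ± 0.76). The complement factor Cfb rose by 3.42 ± 0.18 and Lcn2, which binds bacterial siderophores, from 11.35 and 11.09 to 13.26 and 13.44. Liver genes bear on this list, since several members are made by liver in quantity. On smoke LPS 1 and 2 the hepatocyte mean was 5.61 and 5.50, against 5.58 and 5.50 on smoke saline 1 and 2. Complement genes rose in 8 of 13 (5 without smoke LPS 1, and 10 with 1 lower after room air), among them the receptors C3ar1 (2.21) and C5ar1 (1.87) and properdin, Cfp (1.24).

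Enzymes that make inflammatory mediators rose in 10 of 10, with a median of 2.20 (10 and 2.17 after room air). The list holds Acod1, the arginases Arg1 (2.15) and Arg2 (3.03), the inducible nitric oxide synthase Nos2 (2.10), the tryptophan-degrading Ido1 (2.25) and Ptgs2 and Ptges of prostaglandin synthesis (1.28 and 1.52). Ch25h, which makes 25-hydroxycholesterol, went from 7.82 and 7.77 to 11.17 and 10.69, and the uridine phosphorylase Upp1 from 8.12 and 7.89 to 10.76 and 10.21. Nos2 differed between both LPS arrays, at 10.03 and 7.63, with 6.99 and 6.48 on the saline arrays. Without smoke LPS 1, 6 of the 10 passed, and Nos2, Ido1 and Ptgs2 were among those that did not. Nos2 did not pass without smoke saline 2, nor Ido1 and Ptgs2 without either saline array.

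Genes induced by type I interferon rose in 21 of 21, with a median of 1.69 (1.65 after room air, also 21 of 21). Irf7, the factor that amplifies the interferon response, went from 8.62 and 8.18 to 11.74 and 11.20 (3.07 ± 0.64, limma adjusted p = 0.0016). The antiviral genes Rsad2, Mx1 and Ifit1 rose by 2.99, 2.61 and 2.53. Each was higher on smoke LPS 1 than on smoke LPS 2, Mx1 at 9.59 against 7.60 and Rsad2 at 11.81 against 10.16. Averaged over the list and set against the mean of all arrays, smoke LPS 1 and 2 stood at 1.93 and 0.82, the air LPS arrays between 1.04 and 1.53, and smoke saline 1 and 2 at -0.27 and -0.45. The spread between both smoke LPS arrays was thus wider than among the 3 air LPS arrays. The count rested on smoke LPS 1: without it 1 of the 21 passed, against 20 without smoke LPS 2, 15 without smoke saline 1 and 11 without smoke saline 2. Ifit1, Mx1, Rsad2 and Bst2 were among those that did not pass without it, and Rsad2 did not pass without smoke saline 2 either.

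Genes induced by interferon gamma showed the same spread. Of 12 tested, 9 rose, with a median of 1.51, against 11 and 1.99 after room air. Gbp5, a guanylate-binding protein of the defence against intracellular bacteria, read 7.57 and 7.89 with saline and 11.70 and 9.50 with LPS, and the immune checkpoint ligand Cd274 (PD-L1) read 8.49 and 8.36, then 12.15 and 10.50. The list mean on smoke LPS 1 and 2 was 2.16 and 0.50, with the air LPS arrays at 1.40 to 1.84 between them. Irgm1 and Iigp1, GTPases that target vacuoles, rose by 2.02 and 2.26 and did not pass without smoke LPS 1. Without that array 2 of the 12 passed, and without smoke LPS 2 all 12 did. The class II transactivator Ciita was at 0.34 and did not pass.

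Neutrophil markers rose in 12 of 14, with a median of 2.55 (11 and 1.5 after room air). S100a8 and S100a9, the subunits of calprotectin, went from 8.0 and 7.21 to 10.69 and 10.94 (3.21 ± 0.43) and from 8.37 and 7.98 to 10.63 and 10.76 (2.52 ± 0.40). Cxcr2, the receptor of the neutrophil chemokines, went from 8.36 and 7.49 to 10.85 and 11.41 (3.20 ± 0.32). The decoy receptor Il1r2 rose by 4.28, Clec4d by 3.91 and Trem1, which amplifies neutrophil activation, by 3.55. The granulocyte surface marker Ly6g (2.58) and the granule genes Mmp8 (2.62) and Mmp9 (1.84) rose too. The granule genes Camp (0.00) and Ltf (1.64) did not pass. On the array labelled smoke LPS 3, S100a8 was at 6.08, S100a9 at 6.89 and Cxcr2 at 6.91, below every one of the other 5 smoke arrays. The count of 12 was the same with any 1 of the 4 arrays left out.

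Markers of monocytes and macrophages rose in 13 of 14, with a median of 1.08, and in 6 and 8 of 14 without smoke LPS 1 and without smoke saline 2. After room air 9 of the 14 rose, with a median of 1.05. Itgam (CD11b) rose by 2.53, the high-affinity antibody receptor Fcgr1 by 2.10 and Adgre1 (F4/80) from 8.79 and 8.53 to 10.65 and 10.72. The patrolling monocyte receptor Cx3cr1 was at -0.13. Among markers of alveolar macrophages, 3 of 12 rose, Marco (1.53), Itgax (0.88) and Ctsk (0.68), and Siglecf fell by 0.62. Fabp4 (0.90, limma adjusted p = 0.46) read 9.73 on smoke LPS 1 and 8.11 on smoke LPS 2, and fat cells, whose genes were high on smoke LPS 1, express it too; their part was not tested. Marco passed with each array left out. Siglecf and Ctsk lost the call without either saline array or smoke LPS 2, Siglecf also without smoke LPS 1, and Itgax without smoke saline 2 or smoke LPS 1. Dendritic cell genes rose in 3 of 12, the maturation genes Ccl22 and Fscn1 (1.37) and the interferon-induced Bst2 (1.11), and Itgae fell by 0.55, a call lost without either saline array or smoke LPS 2. Bst2 did not pass without smoke LPS 1.

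B cell genes fell in 12 of 15, with a median of -1.06, against a background of 9.79% of genes that fell. The antigen receptor subunit Cd79a went from 10.04 and 9.90 to 8.80 and 8.17 (-1.48 ± 0.43, limma adjusted p = 0.016). Fcmr, the IgM receptor, was lower by -1.39, the B lineage factor Pax5 by -1.20 and the marker Ms4a1 (CD20) by -1.19, the last from 8.80 and 9.15 to 8.09 and 7.48. Fcer2a, the low-affinity IgE receptor, rose (0.75). Without smoke LPS 2 the B cell count was 4 of 15, without either saline array 6, and without smoke LPS 1 it was 10. Cd79a did not pass without smoke LPS 2 or either saline array, Fcmr without smoke LPS 2, and Ms4a1 and Fcer2a with any 1 array left out. After room air 13 of the 15 fell, with a median of -1.35. The class II accessory genes H2-Ob and H2-Oa, which B cells express, fell by 1.53 and 0.61, while the main class II genes H2-Aa, H2-Ab1 and H2-Eb1 and the invariant chain Cd74 lay between -0.34 and 0.04 and did not pass. Both LPS arrays lay on opposite sides of the saline arrays in H2-Eb1, at 11.54 and 10.56 against 11.41 and 11.37. Of the 8 class II genes 2 fell, 4 fell without smoke LPS 1, and 1 rose and 1 fell without smoke LPS 2. H2-Oa did not pass without smoke LPS 2 or either saline array.

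Over the B cell list, set against the mean of all arrays, smoke saline 1 and 2 stood at 0.82 and 0.87 and smoke LPS 1 and 2 at 0.18 and -0.26. The array labelled smoke saline 3 stood at -0.05 and that labelled smoke LPS 3 at 0.76. Of T cell markers 1 of 13, the naive T cell factor Lef1 (-0.74), fell, and Cd3d, Cd3e, Cd4 and Cd8a lay between 0.09 and 0.28. For these and the natural killer genes next, the shares over all genes tested were 9.79% lower and 10.9% higher. Of natural killer genes, Gzmb (1.67) and Il2rb (1.03) rose among 13; neither passed without smoke LPS 1 or smoke saline 1, nor Il2rb without smoke saline 2.

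**Figure D3:**
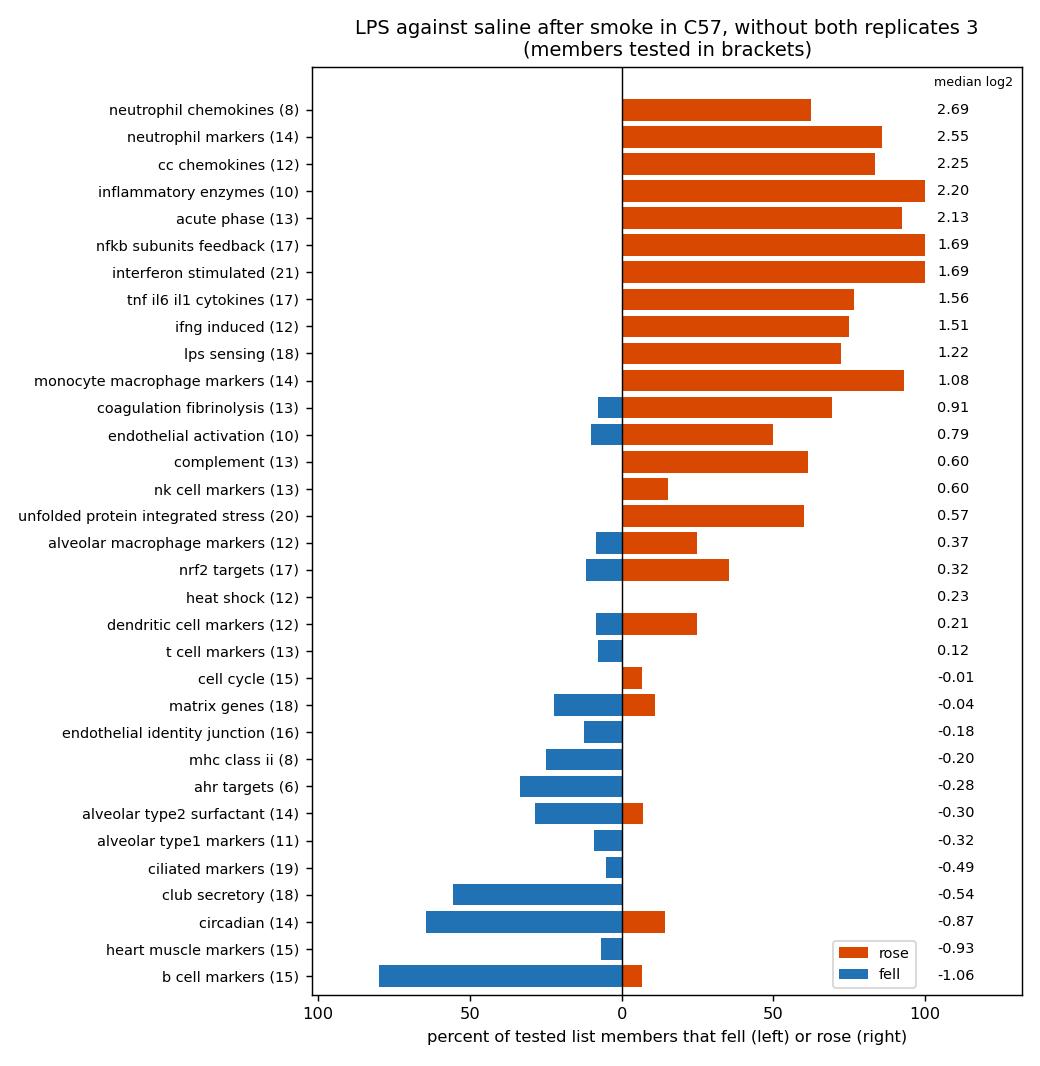
Percent of tested members of each gene list that rose (right, orange) or fell (left, blue) with LPS after smoke in C57 lung without both replicates 3, with the number tested in brackets and the median log2 difference at the right. Over all 14705 genes, 10.9% rose and 9.79% fell; the B cell list has a median of -1.06 and the neutrophil marker list one of 2.55.

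Of 10 genes of endothelial activation 5 rose, among them E-selectin (Sele), which slows leukocytes on the vessel wall, from 6.37 and 6.48 to 8.54 and 8.64 (2.16 ± 0.27). Icam1 and Vcam1 rose by 1.03 each and Lrg1 by 2.18, while the clotting carrier Vwf fell by 0.74, a call lost with any 1 array left out. Of 16 identity and junction genes 2 fell, the receptors Tie1 (-0.84) and Kdr (-0.71), and neither passed without smoke LPS 1 or either saline array. Cdh5, Cldn5 and Pecam1 lay between -0.18 and -0.10. The share of identity and junction genes that fell was near the 9.79% of all genes tested that fell.

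Genes of coagulation and fibrinolysis rose in 9 of 13. Factor X (F10) went from 7.72 and 7.50 to 10.49 and 10.55 (2.91 ± 0.22), the urokinase receptor Plaur from 8.92 and 8.79 to 10.40 and 9.96, and tissue factor (F3), the starter of clotting, by 0.92. Thrombomodulin (Thbd), the anticoagulant of the endothelium, fell from 12.02 and 11.97 to 10.45 and 11.35 (-1.09 ± 0.32, limma adjusted p = 0.017), and did not pass without smoke LPS 1 or either saline array. The count of 9 became 4 without smoke saline 2, where F3 did not pass, and 6 without smoke LPS 1. After room air 8 of the 13 rose, F10 by 2.57, and Thbd did not pass (-0.60).

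Over all genes tested 9.79% fell, and the share that fell in the cilia and alveolar type I lists below was no higher. In the club and secretory list 10 of 18 fell and none rose, with a median of -0.54 (8 fell after room air, median -0.38). The detoxifying enzymes Aox3 (-1.76), Ces1g (-1.69) and Pon1 (-1.53) fell most, Pon1 from 10.77 and 11.06 to 9.39 and 9.38. The secretoglobin Scgb3a2 fell by 1.47, a call lost without smoke saline 2 or smoke LPS 1, while Scgb1a1 was at -0.22 and did not pass. The mucins Muc5b (0.57) and Muc5ac (0.32) did not pass. Among 19 genes of motile cilia 1 fell, Tppp3 (-0.81), with a median of -0.49 and every member below 0; Tppp3 did not pass without smoke saline 1 or smoke LPS 2.

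Alveolar type II genes fell in 4 of 14 (2 after room air). The 4 were the branching factor Etv5 (-1.23), the lipid enzyme Lpcat1 (-0.67), the phospholipid transporter Abca3 (-0.53) and surfactant protein B, Sftpb (-0.49). Surfactant protein D (Sftpd), a collectin that binds microbes, rose from 11.68 and 12.06 to 12.28 and 12.57 (0.55 ± 0.14). Without smoke LPS 1 the count of 4 became 1, with Etv5, Lpcat1 and Abca3 not passing. Lpcat1 did not pass without either saline array, Abca3 without smoke saline 2, and Sftpd without smoke saline 1 or smoke LPS 2. Sftpc was at -0.42 (limma adjusted p = 0.051). Among alveolar type I genes 1 of 11 fell, Rtkn2 (-1.03, limma adjusted p = 0.045), and it did not pass without smoke LPS 1 or either saline array. Heart muscle genes, which can come with tissue next to the lung, had a median of -0.93 with 1 of 15 passing. When the arrays of both groups were fitted alone, 7 of 15 fell. After room air the median was -0.95 with 2 passing. Their list means were -0.28 and 0.33 on smoke saline 1 and 2 and -0.32 and -1.1 on smoke LPS 1 and 2. The source of these transcripts and their part in the results were not tested.

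The 10 genes that fell most were Acoxl, Dbp, Aplnr, Scube2, Itga8, Nr1d1, Lrat, Nrep, Mamdc2 and Pcolce2, from -2.27 to -1.83. Acoxl, an acyl-coenzyme A oxidase-like gene, read 9.55 and 10.33 with saline and 7.63 and 7.72 with LPS. Aplnr, the apelin receptor of endothelium, went from 10.03 and 9.88 to 7.80 and 7.89, and the integrin Itga8, found on lung mesenchyme, from 11.29 and 11.32 to 9.18 and 9.51. Lrat, which esterifies retinol for storage, went from 11.12 and 10.21 to 8.44 and 9.10. For each of these genes both LPS arrays lay below both saline arrays by more than 1 log2 unit. Lrat did not pass without smoke saline 1 or without smoke LPS 1.

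Of 18 matrix genes 2 were higher and 4 lower (6 higher and 2 lower after room air). The shares over all genes tested were 10.9% higher and 9.79% lower, so the share of matrix genes that rose was near that of all genes. Tenascin C (Tnc), deposited in injured tissue, and the collagen cross-linking enzyme Lox rose by 1.62 and 1.61. Fibulin 1 (Fbln1), Col14a1, Mfap4 and Col1a2 fell by 1.45, 1.39, 0.85 and 0.47. Elastin (Eln) was at -0.01. Mfap4 and Col1a2 did not pass without smoke LPS 1, nor Col1a2 without smoke LPS 2 or smoke saline 2, and without smoke LPS 1 the 2 higher and 4 lower became 4 higher and 2 lower.

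Clock genes fell in 9 of 14 and rose in 2, with a median of -0.87. The output factor Dbp went from 10.53 and 10.40 to 8.82 and 7.66 (-2.23 ± 0.33, limma adjusted p = 4.4e-05) and the repressor Nr1d1 from 12.18 and 12.30 to 11.08 and 9.57 (-1.92 ± 0.30). Per3 (-1.35), Hlf (-1.30) and Bhlhe41 (-1.57) fell, and the activator Arntl (0.81) and the repressor Cry1 (0.61) rose. The count of 9 became 8 with smoke saline 1 or either LPS array left out. Arntl and Cry1 did not pass without smoke LPS 2, nor Arntl without smoke saline 1 or Cry1 without smoke saline 2. Smoke LPS 2 was further from the saline arrays than smoke LPS 1 in Dbp, Nr1d1 and Arntl. After room air 6 fell and 1 rose, with a median of -0.19. The hours of instillation and dissection were not given in the sources used here.

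Cigarette smoke contains ligands of the aryl hydrocarbon receptor and oxidants that activate the factor NRF2, and the targets of both were read in the smoke-exposed lungs. Of 6 receptor genes 2 fell with LPS. Cyp1a1, the enzyme that reports on the receptor most directly, went from 7.50 and 6.90 to 5.89 and 6.65 (-0.93 ± 0.23, limma adjusted p = 0.0063). On the air arrays it read 6.06, 6.16 and 6.59 with saline and 5.94, 5.78 and 5.50 with LPS. Ahr itself fell by 0.60. Neither Cyp1a1 nor Ahr passed without smoke saline 1 or without smoke LPS 1.

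NRF2 targets rose in 6 of 17 and fell in 2 (4 rose and 3 fell after room air). Of all genes tested 10.9% rose and 9.79% fell, so the share of NRF2 targets that fell was near that of all genes. The cystine transporter Slc7a11 went from 6.91 and 7.34 to 11.71 and 11.16 (4.32 ± 0.42), heme oxygenase 1 (Hmox1) from 9.07 and 9.02 to 10.72 and 10.50 (1.56 ± 0.17), and glutathione reductase (Gsr) by 0.97. Gstm1 (-0.60) and catalase, Cat (-0.64), fell, and Nqo1, the target most used as a readout, was at -0.53 (limma adjusted p = 0.17). Gstm1 did not pass without smoke saline 1 or smoke LPS 1. Genes of the unfolded protein response rose in 12 of 20, with a median of 0.57, led by Sdf2l1 (1.59) and Atf3 (1.55). None of 12 heat shock genes passed, and of 15 cell cycle genes Bub1b (0.44) rose, a call lost without smoke saline 2 or smoke LPS 2. Atf3 did not pass without smoke saline 1 or smoke LPS 1.

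The LPS response after smoke was then set beside that after room air, a comparison that asks whether prior smoke changed the response and in which the 2 differences share no arrays. Over 14705 genes the log2 differences correlated with Pearson r 0.909 and Spearman rho 0.794, with a slope through the origin of 1.01. This is a description across genes, which are not independent replicates. With both replicates 3 kept under their labels r was 0.78 and the slope 0.412. After room air 3367 genes passed (22.9%), of which 2239 rose (15.2%) and 1128 fell (7.67%). With both smoke replicates 3 kept in the estimate of the spread, the same air arrays gave 2316 (15.7%), 1684 higher (11.5%) and 632 lower (4.3%). Of the genes that rose, 1375 were shared, 85.5% of those after smoke and 61.4% of those after air. Of the genes that fell, 732 were shared, 50.8% of those after smoke and 64.9% of those after air. None passed in opposite directions.

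**Figure D4:**
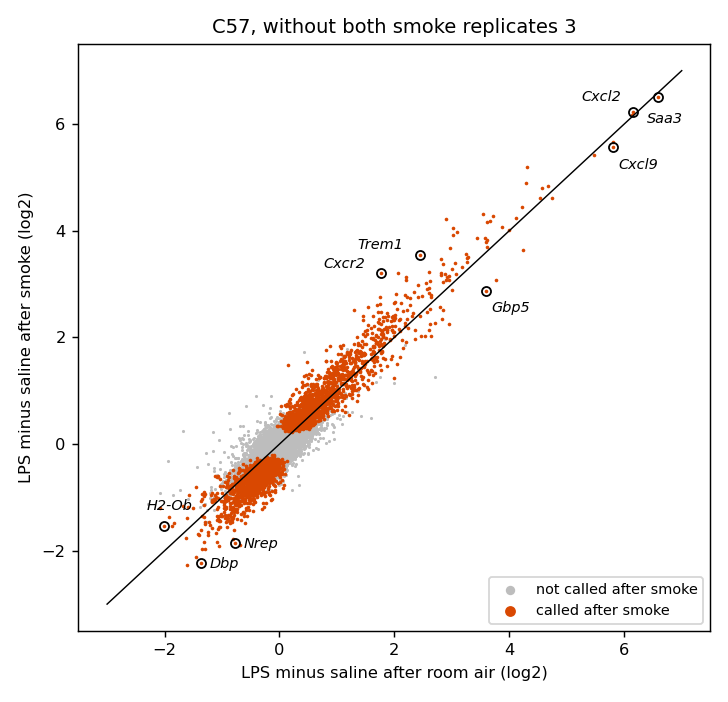
Log2 difference of LPS against saline after room air (horizontal) and after smoke without both replicates 3 (vertical), 1 point per gene, orange where the gene passed after smoke; the line marks equal differences and circles mark named genes. Saa3 and Cxcl2 lie near the line at 6.59 and 6.51 and at 6.15 and 6.23, and Cxcr2 (1.76 and 3.20) and Trem1 (2.45 and 3.55) lie above it.

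In the test of the difference itself, the smoke by LPS interaction, no gene passed without the pair (limma; 599 genes, 4.07%, at an unadjusted p under 0.05; smallest adjusted p 0.28, for Ripor2). As labelled no gene passed either (limma; 1081 at an unadjusted p under 0.05; smallest adjusted p 0.60). This does not show that the responses were alike, since the median standard error of the interaction was 0.19. For Cxcl2 the interaction was 0.08, with an interval of -0.97 to 1.13. For Saa3 it was -0.07 and for Acod1 0.03, with intervals of -1.42 to 1.27 and -1.13 to 1.19. These intervals are unadjusted, and a difference above 1 log2 unit could also miss the threshold. The largest interaction of any gene, 1.93 in absolute value, did not pass.

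The neutrophil markers had interaction values above 0 in 14 of 14, with a median of 0.96 against -0.04 over all genes, and none passed. For Cxcr2 the interaction was 1.44, with an unadjusted interval of 0.60 to 2.29 (limma adjusted p = 1.00). Its saline arrays read 8.36 and 7.49 after smoke and 9.12, 8.69 and 8.18 after air, and its LPS arrays 10.85 and 11.41 after smoke and 10.18, 10.49 and 10.61 after air. For S100a8 the interaction was 1.14, and its saline arrays read 8.0 and 7.21 after smoke against 8.70, 7.75 and 7.46 after air. The interaction had a part on either side. In Cxcr2 smoke minus air was 0.71 with LPS and -0.74 with saline, in S100a8 0.77 and -0.37, and in S100a9 0.69 and -0.53. The list means with saline were -0.49 and -0.79 after smoke and 0.05, -0.16 and -0.59 after air. Genes induced by interferon gamma had interaction values below 0 in 12 of 12 (median -0.41). Smoke LPS 2 set that sign: without it all 12 were above 0 (median 0.4), and without smoke LPS 1 all 12 were below 0 (median -1.19). Clock genes had interaction values below 0 in 12 of 14 (median -0.56). A one-sided sign was not particular to these lists. Values were below 0 in 14 of 14 alveolar type II genes (median -0.24) and 11 of 11 alveolar type I genes (-0.29). They were below 0 in 16 of 18 matrix genes (-0.26) and 14 of 15 cell cycle genes (-0.24). They were above 0 in 8 of 8 neutrophil chemokine genes (0.2) and 14 of 15 B cell genes (0.35). None of these passed. The LPS arrays alone, smoke against air, gave no gene past the threshold (limma; 408 at an unadjusted p under 0.05). That contrast uses the same smoke LPS arrays. Cyp1a1 was higher after smoke by 0.53 ± 0.21 in it (limma adjusted p = 1.00).

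Between strains, the LPS response after smoke differed in 135 genes (0.918% of those tested), 114 with a more positive difference in AKR (0.775%) and 21 with a more positive one in C57 (0.143%). As labelled the count was 268 (1.82%), of which 99 were shared. The instilled AKR arrays stood apart from the C57 arrays in the distribution of their intensities, with medians of 6.80 to 6.90 against 6.96 to 7.10. Not all AKR arrays did so. Those of room air alone had medians of 7.05 to 7.09 where titled 6 weeks, and of 6.81 and 6.85 where titled 3 weeks. The source of this offset was not tested. After quantile normalization 111 genes passed, 105 of them shared. Strain variants under the probes, which can alter a level or hide a change, were not examined here. The gene with the largest difference, BC018473, was flat in C57, at 5.64 and 5.37 with saline and 5.45 and 5.56 with LPS. In AKR it went from 5.94, 6.28 and 6.57 to 12.69 and 12.51, so that the interaction, AKR minus C57, was 6.34 ± 0.45 (limma adjusted p = 2.1e-08). Ifi202b, an interferon-induced gene of the AIM2-like family, read 3.86 to 4.08 on the C57 arrays and rose in AKR from 5.90, 6.34 and 6.01 to 9.50 and 9.69.

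Some genes rose in C57 lung and differed less in AKR. Slfn8 went from 7.0 and 6.98 to 9.94 and 8.54 in C57 and lay between 4.62 and 4.84 on all 5 AKR arrays. Orm1 and Slc7a11 were already high in AKR after smoke with saline, Orm1 at 11.08, 11.51 and 9.67 and Slc7a11 at 10.11, 10.64 and 8.75. With LPS these AKR values were 11.95 and 11.54 for Orm1 and 10.80 and 10.55 for Slc7a11. The interaction was -4.43 ± 0.79 for Orm1 and -3.47 ± 0.57 for Slc7a11 (limma adjusted p = 0.0070 and 0.0037). With all arrays as labelled, Orm1, Slc7a11, Slfn8 and Cd79a did not pass in this interaction, and BC018473 and Ifi202b did. Of the B cell genes, 9 of 15 had a more positive difference in AKR, against 0.775% of all genes tested. Both AKR LPS arrays differed. The B cell list means were -0.11 on AKR smoke LPS 1 and -0.79 on AKR smoke LPS 2, and -1.11, -0.96 and -0.91 on the AKR smoke saline arrays. The B cell gene Cd79a fell in C57 by 1.48, and in AKR it went from 6.06, 6.78 and 7.07 to 8.42 and 6.96, so that its AKR groups overlapped. Its interaction (2.54 ± 0.58, limma adjusted p = 0.035) did not pass when any 1 of 6 arrays was left out, among them smoke LPS 2 of C57 and smoke LPS 1 of AKR.

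**Figure D5:**
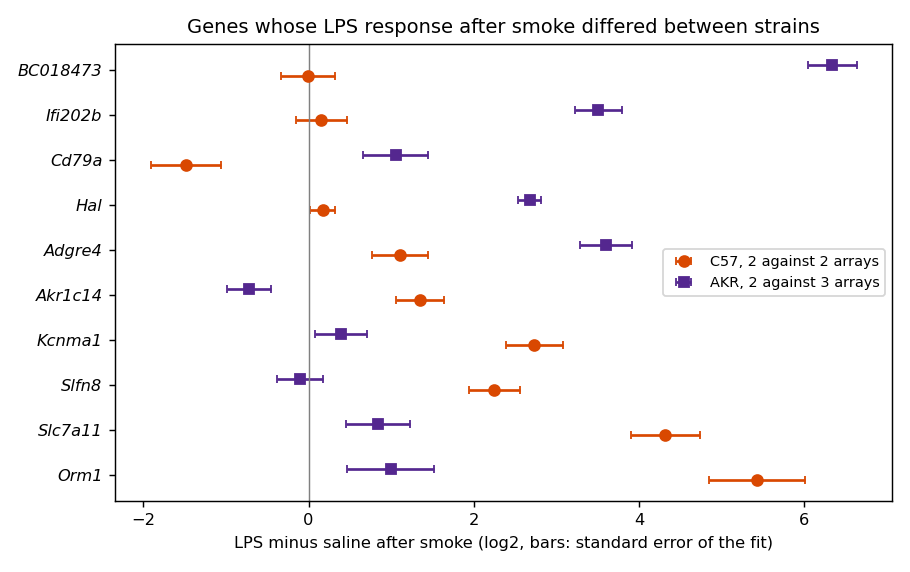
Log2 difference of LPS against saline after smoke for the 10 genes with the largest strain difference, in C57 without both replicates 3 (circles, 2 against 2 arrays) and AKR (squares, 2 against 3 arrays), with bars for the standard error of the fit. BC018473 is at -0.004 in C57 and 6.34 in AKR, and Orm1 at 5.43 in C57 and 0.99 in AKR.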

How the data were processed

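Per the submitters' processing notes, the arrays were summarised with RMA, and the authors deposited log2 intensities per probe set; genome build and scanner files were not used here. Of 35556 probe sets, 21789 had 1 gene symbol in the platform annotation, 1621 several and 12146 none; for the 999 genes that had more than 1, the probe set that was brightest on average across the 31 arrays stood for the gene. Of 19938 genes, 14705 exceeded the 40th percentile of intensities on 3 or more arrays and were tested. limma 3.58.1 in R 4.3.3 fitted 11 group means with 20 residual degrees of freedom as labelled and 18 without both replicates 3; every p-value is two-sided and adjusted by the Benjamini-Hochberg method with a threshold of 0.05. The number of arrays limits the precision.

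Members, lists and tests were chosen with earlier results of these data known. Genes were named as the 10 largest rises and 10 largest falls, 5 and 5 for the other contrasts, up to 4 largest of each list and 14 always given; other list members were named after their values were seen. The hepatocyte and adipocyte lists were added once their values were known. Promoters came from RefSeq, GRCm38.p6. Alternatives covered the filter, normalization, probe sets, moderation, the arrays in the fit, the replicate number as a block and each array left out.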

Additional observations from a re-analysis of the deposited data

Results flagged for a closer look

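These genes had an LPS response after smoke that differed between strains by the interaction test in limma (AKR minus C57, log2, without both C57 replicates 3). Above 0 were BC018473 (6.34), Ifi202b (3.35), Cd79a (2.54), the histidine ammonia-lyase gene Hal (2.50) and the adhesion receptor Adgre4 (2.49). Below 0 were Orm1 (-4.43), Slc7a11 (-3.47), Slfn8 (-2.35), the potassium channel Kcnma1 (-2.33) and the steroid dehydrogenase Akr1c14 (-2.07). Kcnma1 lay between 12.60 and 13.15 on all 5 AKR smoke arrays and went from 4.75 and 5.20 to 6.78 and 8.64 in C57. Hal was at 8.73 on the array labelled C57 smoke LPS 3, which held liver transcripts and was left out, and at 5.85 to 6.37 on the other 5 C57 smoke arrays. With all arrays as labelled, Hal, Orm1, Slc7a11, Slfn8, Kcnma1, Akr1c14 and Cd79a did not pass.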

How the results depend on the processing

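As labelled, the count of 0 genes became 1 (Saa4) with replicate number as a block and ranged from 0 to 1881 with each array left out: 1881 without smoke LPS 3, 18 without smoke saline 3 and 2 without smoke LPS 2. Without both replicates 3, the 3048 genes became 1761 when the arrays of both groups were fitted alone, and ranged from 1572 to 2672 with a further array left out: 1920 without smoke saline 1, 1778 without smoke saline 2, 1572 without smoke LPS 1 and 2672 without smoke LPS 2. Where 1 array stood for a group, it was assumed to vary like the others. Other settings gave 2609 to 3279, and with the replicate block 3136. Quantile normalization gave 1511 higher and 1768 lower against 1608 and 1440. The smoke by LPS interaction gave 0 as labelled in every setting run; without the pair it ranged from 0 to 1 with an array left out (1, Plekhd1, without air LPS 1). Smoke LPS against air LPS ranged from 0 to 10 (10 without air LPS 1, and 1, Nr1d1, without smoke LPS 1). The strain interaction of 135 genes became 54 with the smoke groups alone, 268 with all arrays as labelled and 108 with the block, and ranged from 26 (without AKR smoke LPS 1) to 331 (without AKR smoke saline 3) with an array left out. The cause of these moves was not tested beyond the smaller number of arrays. Whether the replicate numbers pair the arrays after smoke could not be tested, since replicates 3 weighed heavily on the group means. Across genes, deviations from these means correlated at -0.434, -0.582 and -0.773 between saline and LPS arrays numbered 1, 2 and 3. Of 251 named genes and list members that passed without the pair, 144 kept direction and side of the threshold in every setting run, 107 lost the call in at least 1, and none reversed; of the 10 strain genes 2 kept it.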
